A study of Mus musculus with 6 samples.

Results

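Fn1, Ccr2, Ly6c2, F13a1, Vcan, Plac8, Chil3, S100a4 and Clec12a are 9 genes commonly read as signs of blood monocytes that have entered the brain. They were taken by symbol from a table of 24956 genes measured in flow-sorted microglia, the macrophages that live in the brain. All 9 were in the table and all 9 passed the filter on low counts that left 14520 genes. The set was chosen by the difference in read counts between the antibody groups, which was already known, so the values of these genes between the groups are a description and carry no test. The mice were 3XTg-AD animals, which carry human transgenes linked to Alzheimer's disease and which make up both groups, aged 7 months. In 1 group, 25 µg of an antibody against NK1.1, found on natural killer (NK) cells, was given at intervals of 4 days over 4 weeks. The other group received an isotype control antibody on the same schedule. There were 3 bulk RNA libraries per group, and the labels do not say whether a library came from 1 mouse or from a pool, nor which surface markers were used in the sort, so p-values measure only the spread between these libraries, which may be technical.

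Classical monocytes leave the bone marrow by means of the chemokine receptor CCR2, carry the surface protein Ly6C at high level, and follow CCL2 into inflamed tissue, where they turn into macrophages. Microglia arise from the yolk sac and renew themselves within the brain, and in mice they express these genes weakly or not at all. Each gene also has sources other than monocytes: Fn1 is made by fibroblasts and endothelium, F13a1 by border macrophages, Vcan by oligodendrocyte precursors, Chil3 and Ly6c2 by immature myeloid cells of the neutrophil lineage, and Plac8 and S100a4 by several kinds of leukocyte. In bulk RNA, fewer cells of a type and less RNA per cell cannot be told apart.

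Gene counts per library totalled 26893620 to 31353937 in the anti-NK1.1 group and 31884697 to 36098252 in the isotype group. Klrb1c, the gene of NK1.1, had 0, 0 and 13 counts in anti-NK1.1 libraries 1 to 3, against 50, 45 and 80 counts in isotype libraries 1 to 3. Ncr1, another NK cell receptor, had 0 counts in all 3 anti-NK1.1 libraries, against 128, 53 and 0 counts in isotype libraries 1 to 3, and was not tested. All 14 listed microglial markers were above 0 in every library, and their summed level was 38252 to 47429 CPM (read counts relative to the TMM-scaled size of the library) in the anti-NK1.1 group and 41198 to 46647 CPM in the isotype group. Neutrophil RNA was abundant too: 18 of 18 listed markers were above 0 in every library, with 33395, 34407 and 144313 CPM in anti-NK1.1 libraries 1 to 3 and 104248, 82833 and 77304 CPM in isotype libraries 1 to 3. By this sum, anti-NK1.1 library 3 lay apart from the rest of its group and above every isotype library. The single markers differed in this: in anti-NK1.1 library 3, 9 of the 18 (S100a8, S100a9, Retnlg, Ngp, Camp, Lcn2, Ly6g, Fcnb and Chil1) were above every isotype library, 6 were within the isotype range, and Cxcr2, Csf3r and Mpo were below it. The libraries also differed in their balance of long and short transcripts. Across genes, the deviation of a gene from its mean over libraries correlated with exonic length at Spearman's rho of -0.15, 0.21 and -0.29 in anti-NK1.1 libraries 1 to 3, against 0.01, 0.02 and 0.29 in isotype libraries 1 to 3, and a fit corrected for length was run as an alternative.

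The 9 genes did not move as a block. For Fn1, Ccr2 and F13a1, the highest anti-NK1.1 value lay below the lowest isotype value. Ly6c2 and Chil3 were low in anti-NK1.1 libraries 1 and 2 and high in library 3, as S100a8 and S100a9 were. Clec12a, Plac8 and S100a4 differed little in the group means, and Vcan was close to absent. The count of 3 of 9 genes lower without overlap and 0 higher stands beside 7.59% of all tested genes that were lower without overlap and 7.73% that were higher, from which nothing is read, since the genes were chosen on this contrast. Without anti-NK1.1 library 3 the count was 6 of 9, where 12.5% of all tested genes were lower without overlap. The median log2 change of the 9 genes was -0.60, against 0.01 over all tested genes, and -1.47 without anti-NK1.1 library 3.

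**Figure D1:**
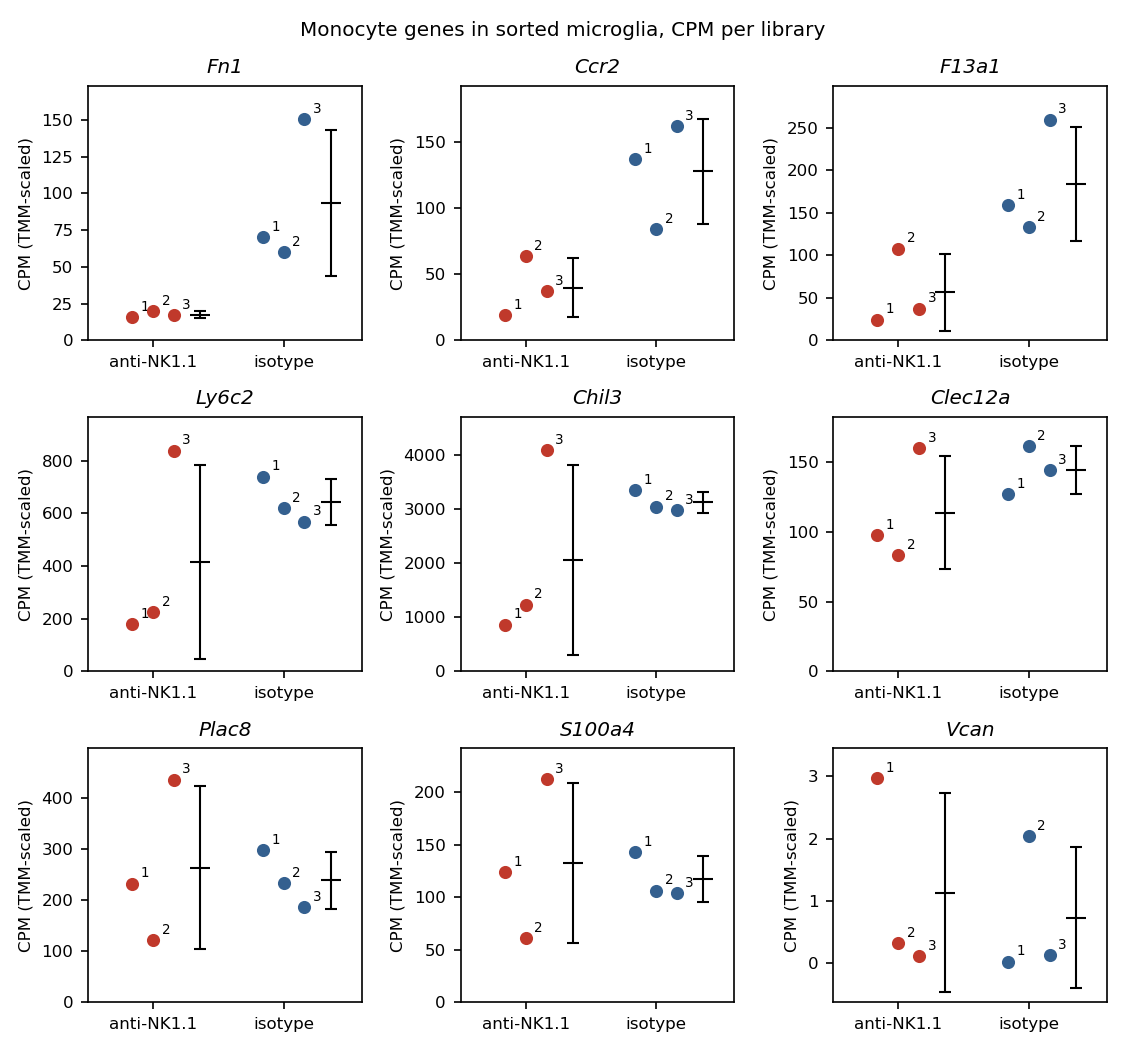
Level of each of the 9 genes in CPM (y axis, linear) in the 3 anti-NK1.1 and the 3 isotype libraries, numbered as in the labels, with the mean ± SD of each group as a black bar. Fn1, Ccr2 and F13a1 separate the groups, while in Ly6c2 and Chil3 anti-NK1.1 library 3 lies above every isotype library.

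Promoters are shown for Ccr2 and F13a1, whose groups did not overlap, and for Ly6c2 and Chil3, which moved together, to set their start-site sequences side by side. Each is the RefSeq sequence (GRCm38.p6) from 250 bases before to 50 bases after the start site, 5′ to 3′ on the gene's strand, with capitals marking matches to GAGGAA, the core of sites of the myeloid factor PU.1, or to TATAAA, the letters of the TATA box, on either strand.
Ccr2, chr9:124101933-124102232, plus strand: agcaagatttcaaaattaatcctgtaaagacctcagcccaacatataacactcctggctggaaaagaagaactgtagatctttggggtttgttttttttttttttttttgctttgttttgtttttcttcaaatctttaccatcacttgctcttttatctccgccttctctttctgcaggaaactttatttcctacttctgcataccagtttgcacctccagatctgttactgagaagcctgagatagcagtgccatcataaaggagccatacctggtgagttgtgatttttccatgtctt
F13a1, chr13:37050195-37050494, minus strand: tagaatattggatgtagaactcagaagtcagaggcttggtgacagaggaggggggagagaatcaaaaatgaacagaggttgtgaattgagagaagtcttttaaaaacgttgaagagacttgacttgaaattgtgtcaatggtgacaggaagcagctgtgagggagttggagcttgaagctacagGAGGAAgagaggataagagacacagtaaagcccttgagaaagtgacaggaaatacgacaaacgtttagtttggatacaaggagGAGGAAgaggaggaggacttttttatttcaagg
Ly6c2, chr15:75111922-75112221, minus strand: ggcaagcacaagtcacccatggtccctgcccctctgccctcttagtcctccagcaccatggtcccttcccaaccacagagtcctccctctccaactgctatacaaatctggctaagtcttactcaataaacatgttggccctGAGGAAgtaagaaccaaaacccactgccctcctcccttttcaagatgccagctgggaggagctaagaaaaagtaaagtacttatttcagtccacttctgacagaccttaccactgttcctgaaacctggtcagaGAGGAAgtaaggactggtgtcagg
Chil3, chr3:106167515-106167814, minus strand: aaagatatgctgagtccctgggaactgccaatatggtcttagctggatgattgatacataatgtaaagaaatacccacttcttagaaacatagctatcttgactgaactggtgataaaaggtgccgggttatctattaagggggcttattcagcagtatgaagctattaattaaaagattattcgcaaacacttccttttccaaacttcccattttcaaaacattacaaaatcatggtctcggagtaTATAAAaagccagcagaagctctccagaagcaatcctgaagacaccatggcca
F13a1 and Ly6c2 each hold 2 matches to GAGGAA, Ccr2 holds no match, and Chil3 holds 1 match to TATAAA, which begins 3 bases before the start site. Of the 8 genes with an entry, 5 hold GAGGAA (F13a1, Ly6c2, Plac8, S100a4 and Clec12a), where 28.3% of 32851 promoters of the same length do, and 2 hold TATAAA (Chil3 and S100a4), where 13.6% do. A C/EBP site written as TTGCNNAA (10.8% of promoters) and an AP-1 site written as TGANTCA (7.81%) occurred in Clec12a alone, whose RefSeq start lies 7553 bases from the GENCODE start (233 bases for Ccr2), and an interferon regulatory factor site written as a pair of GAAA parted by 2 bases (3.44%) in none.

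Fn1 encodes fibronectin, a glycoprotein of the extracellular matrix that binds integrins (chromosome 1, 71585520 to 71653200, minus strand, GRCm38). It had 415, 690 and 427 counts in anti-NK1.1 libraries 1 to 3, against 2521, 1935 and 5766 counts in isotype libraries 1 to 3. After scaling this was 15.6, 20.1 and 17.0 CPM in the anti-NK1.1 group and 70.3, 60.0 and 151 CPM in the isotype group. The 3 anti-NK1.1 values lay close together, and isotype library 3 was 2.51 times isotype library 2. Fn1 averaged 17.6 ± 2.32 CPM after anti-NK1.1 and 93.6 ± 49.6 CPM after isotype (SD, n = 3 each), a log2 change of -2.41 ± 0.38 (SE), or 0.188 times the isotype level. It was -1.89 without isotype library 3 and -1.99 after a correction for transcript length. The comparison of anti-NK1.1 library 2 alone with the isotype libraries gave -2.21.

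Ccr2 encodes the receptor for CCL2 through which classical monocytes leave the marrow (chromosome 9, 124101950 to 124113557, plus strand). Its level was 18.9, 63.8 and 37.4 CPM in anti-NK1.1 libraries 1 to 3, against 137, 84.5 and 162 CPM in isotype libraries 1 to 3. The groups did not overlap, although anti-NK1.1 library 2 came near isotype library 2. The means were 40.0 ± 22.6 CPM after anti-NK1.1 and 128 ± 39.6 CPM after isotype (SD, n = 3 each), a log2 change of -1.68 ± 0.43 (SE), or 0.313 times the isotype level. With anti-NK1.1 library 2 as the only library of its group, the log2 change was -1.0. After the correction for transcript length it was -1.45. P2ry12, a purinergic receptor that marks microglia, was itself lower, with 2692, 4381 and 2682 CPM in anti-NK1.1 libraries 1 to 3, against 5054, 4554 and 5006 CPM in isotype libraries 1 to 3. Set against it, the groups still did not overlap. For each 1000 CPM of P2ry12, Ccr2 had 7.01, 14.6 and 13.9 CPM in anti-NK1.1 libraries 1 to 3 and 27.1, 18.6 and 32.4 CPM in isotype libraries 1 to 3. Fn1 on the same footing had 5.80, 4.60 and 6.34 CPM in anti-NK1.1 libraries 1 to 3 and 13.9, 13.2 and 30.1 CPM in isotype libraries 1 to 3.

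F13a1 encodes the catalytic A subunit of coagulation factor XIII, a transglutaminase that crosslinks fibrin and fibronectin (chromosome 13, 36867178 to 37050244, minus strand). It had 24.4, 108 and 37.4 CPM in anti-NK1.1 libraries 1 to 3, against 159, 133 and 260 CPM in isotype libraries 1 to 3. Library 2 was the highest of the anti-NK1.1 group and isotype library 3 the highest of all, the same order of libraries at both ends as for Fn1. Anti-NK1.1 library 2 and isotype library 3 also had the highest correlations with exonic length (Spearman's rho of 0.21 and 0.29). The part of transcript length in this order was not tested. The log2 change was -1.70 ± 0.52 (SE), with 56.6 ± 45.1 CPM after anti-NK1.1 and 184 ± 66.8 CPM after isotype (SD, n = 3 each). After the correction for transcript length it was -1.51. It was -2.58 without anti-NK1.1 library 2 and -0.76 with that library as the sole one of its group. The size of the difference thus depended on which anti-NK1.1 libraries entered it. For each 1000 CPM of P2ry12 it had 9.08, 24.7 and 13.9 CPM in anti-NK1.1 libraries 1 to 3 and 31.5, 29.3 and 51.9 CPM in isotype libraries 1 to 3, again without overlap. Across the 6 libraries the log2 CPM of F13a1 and Ccr2 had a Pearson r of 0.98, that of Fn1 and Ccr2 0.90 and that of Fn1 and F13a1 0.89, as a description of points that share libraries, depth and the group difference.

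Ly6c2 encodes a form of Ly6C, the small surface protein that defines classical monocytes in mice and is also present on developing neutrophils (chromosome 15, 75108158 to 75111970, minus strand). It had 180, 226 and 838 CPM in anti-NK1.1 libraries 1 to 3, against 739, 620 and 568 CPM in isotype libraries 1 to 3. The 2 lowest values and the single highest value of the 6 libraries were thus all in the anti-NK1.1 group, and the groups overlapped. The log2 change of -0.63 ± 0.51 (SE) became -1.66 without anti-NK1.1 library 3 and -0.27 without anti-NK1.1 library 1. Chil3 encodes Ym1, a chitinase-like lectin that is secreted by monocytes, macrophages and neutrophil precursors (chromosome 3, 106147554 to 106167564, minus strand). At 866, 1235 and 4083 CPM in anti-NK1.1 libraries 1 to 3, against 3342, 3043 and 2977 CPM in isotype libraries 1 to 3, it followed Ly6c2 from library to library with r = 0.995 over 6 libraries. Its log2 change was -0.60 ± 0.49 (SE), and -1.57 without anti-NK1.1 library 3.

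The levels of Ly6c2 and Chil3 stayed in near proportion to those of S100a8 and S100a9, the calcium-binding alarmins that fill neutrophils and are also made by classical monocytes. S100a8 and S100a9 together reached 22709, 20604 and 89650 CPM in anti-NK1.1 libraries 1 to 3, against 68644, 49312 and 45934 CPM in isotype libraries 1 to 3. For each 1000 CPM of the pair, Ly6c2 had 7.94, 10.95 and 9.35 CPM in anti-NK1.1 libraries 1 to 3 and 10.8, 12.6 and 12.4 CPM in isotype libraries 1 to 3. The highest of these ratios was 1.58 times the lowest, whereas the highest CPM of Ly6c2 was 4.64 times its lowest. For Chil3 the ratio varied 1.70-fold and the CPM 4.71-fold. Fn1 went the other way: its ratio to the pair varied 17.3-fold, more than its CPM, which varied 9.65-fold. F13a1 did so too (13.6-fold against 10.6-fold), while for Ccr2 ratio and CPM varied about alike (8.47-fold and 8.59-fold). The ratio varied less than the CPM for Plac8 (2.53-fold against 3.58-fold) and S100a4 (2.62-fold against 3.47-fold), and more for Clec12a (2.41-fold against 1.93-fold). In anti-NK1.1 library 3, where the alarmins were highest, Fn1, Ccr2 and F13a1 were all below their lowest isotype value. The part of neutrophil-lineage RNA in the Ly6c2 and Chil3 values was not tested.

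**Figure D2:**
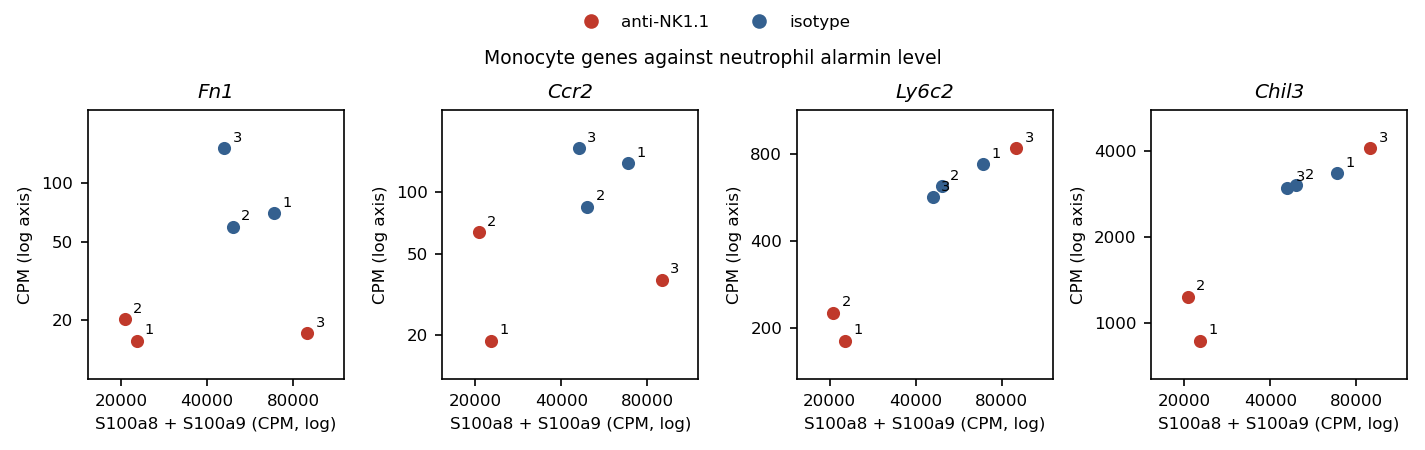
CPM of Fn1, Ccr2, Ly6c2 and Chil3 (y axes, log scale) against the summed CPM of S100a8 and S100a9 (x axes, log scale) in the 3 anti-NK1.1 (red) and 3 isotype (blue) libraries, numbered as in the labels. Ly6c2 and Chil3 climb with the alarmin level across both groups, whereas anti-NK1.1 library 3 combines the highest alarmin level with 17.0 CPM of Fn1 and 37.4 CPM of Ccr2.

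Clec12a encodes an inhibitory C-type lectin receptor of monocytes, neutrophils and dendritic cells (chromosome 6, 129342691 to 129365303, plus strand). Of the 9 it varied least over the 6 libraries, at 97.7, 83.5 and 160 CPM in anti-NK1.1 libraries 1 to 3, against 127, 161 and 144 CPM in isotype libraries 1 to 3. Anti-NK1.1 library 3 lay within the isotype range and the other 2 below it, with a log2 change of -0.34 ± 0.28 (SE). Plac8, a small cysteine-rich protein of myeloid and lymphoid cells (chromosome 5, 100553725 to 100572245, minus strand), had 233, 122 and 436 CPM in anti-NK1.1 libraries 1 to 3, against 297, 233 and 186 CPM in isotype libraries 1 to 3. S100a4, a calcium-binding protein linked to cell motility (chromosome 3, 90603771 to 90606045, plus strand), had 124, 61.2 and 212 CPM in anti-NK1.1 libraries 1 to 3, against 143, 106 and 104 CPM in isotype libraries 1 to 3. These 2 genes were high and low in the same libraries (r = 0.986 over 6), with anti-NK1.1 library 2 lowest and library 3 highest of all. Their log2 changes were 0.14 ± 0.41 and 0.17 ± 0.40 (SE), and both turned negative without anti-NK1.1 library 3, to -0.43 and -0.35, and after the length correction, to -0.12 and -0.23.

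Vcan, the chondroitin sulfate proteoglycan versican (chromosome 13, 89655312 to 89742509, minus strand), had 79, 11 and 3 counts in anti-NK1.1 libraries 1 to 3, against 1, 66 and 5 counts in isotype libraries 1 to 3. It exceeded 1 CPM in a single library of each group, at 2.97 CPM in anti-NK1.1 library 1 and 2.04 CPM in isotype library 2. The log2 change of 0.63 ± 1.74 (SE) had an SE larger than itself, and leaving out isotype library 2 gave 3.77 and leaving out anti-NK1.1 library 1 gave -1.71. Markers of oligodendrocyte precursors, which also make versican, summed to under 30 CPM in every library, and all 6 tested were higher after anti-NK1.1. Of these 6, edgeR called 0 and DESeq2 called 0. The part of these cells in the Vcan values was not tested.

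**Figure D3:**
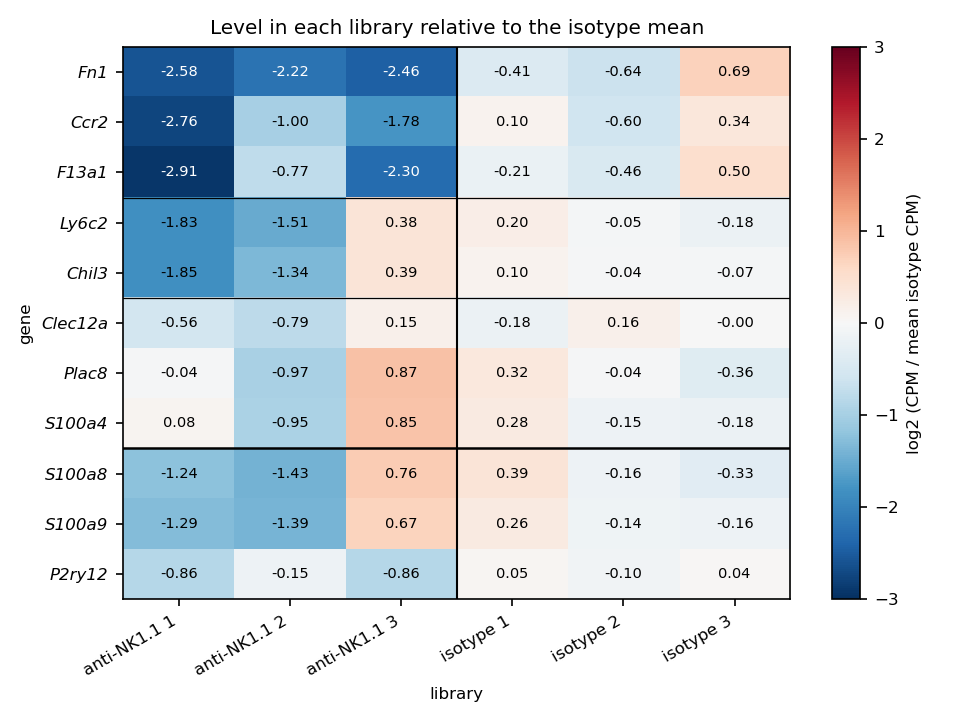
Log2 ratio of the CPM in each library (columns, anti-NK1.1 on the left) to the isotype mean, for the 8 genes other than Vcan and for S100a8, S100a9 and the microglial receptor gene P2ry12 (rows). Fn1, Ccr2 and F13a1 are below 0 in all 3 anti-NK1.1 libraries, Ly6c2 and Chil3 in libraries 1 and 2 only, alongside S100a8 and S100a9.

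Per length of transcript the 9 genes spanned a wide range of levels. Divided by the length of the principal transcript, Chil3 came first with 1339 CPM per kilobase after anti-NK1.1 and 2028 after isotype, and Ly6c2 next with 504 and 782 CPM per kilobase in the same groups. S100a4 had 266 CPM per kilobase after anti-NK1.1 and 237 after isotype, and Plac8 had 215 and 195 in the same groups. Fn1, with a transcript of 8315 nt, had 2.11 CPM per kilobase after anti-NK1.1 and 11.3 after isotype, and Ccr2 had 6.98 and 22.3 in the same groups. The 2 genes most abundant per length were therefore those with the steadiest ratio to the alarmins, while Fn1, Ccr2 and F13a1 (14.3 CPM per kilobase after anti-NK1.1 and 46.6 after isotype) were scarce in both groups.

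Reads of 75 bases can be shared with other loci, and the annotation used for counting is not given in the sources used here. Of the 75-base windows of the Ly6c2 transcript, 21.9% also occur in a transcript of Ly6c1, its neighbour, which is expressed by endothelium. Ly6c1 had 58.0, 25.8 and 12.9 CPM in anti-NK1.1 libraries 1 to 3, against 6.75, 12.8 and 10.3 CPM in isotype libraries 1 to 3, a direction opposite to that of Ly6c2 in libraries 1 and 2. For Chil3, 14.2% of windows are shared, 8.53% with Chil4, which stayed below 1 CPM in every library. S100a4 shares 53.8% of its windows with a GENCODE gene model that overlaps it on the same strand, so its counts are uncertain. Fn1 shares 2.12%, all with an antisense gene model, and Ccr2 1.38%, while F13a1, Plac8 and Clec12a share none. The kits do not mark strand, so reads from antisense models over Fn1, F13a1 and Vcan cannot be told apart.

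Other genes of classical monocytes lay on both sides of no difference. Of 20 further markers, all tested, 14 were lower and 6 higher after anti-NK1.1, with a median log2 change of -0.10 against 0.01 over all tested genes. That median depended on single libraries: it was 0.04, 0.19 and -0.56 without anti-NK1.1 library 1, 2 or 3, and 0.00264 with scaling by microglial genes. edgeR's quasi-likelihood test with Benjamini-Hochberg adjustment called 0% of the 14520 genes, and so 0 of the 20; at an unadjusted p under 0.05 there were 3 of the 20 and 6.54% of all genes, and DESeq2 called 0 of the 20 and 0.574% of the genes it could adjust. Without anti-NK1.1 library 2, edgeR called 129 genes, none of the 20 among them. Cd44, the hyaluronan receptor, had 60.3, 115 and 118 CPM in anti-NK1.1 libraries 1 to 3, against 159, 167 and 219 CPM in isotype libraries 1 to 3, and a log2 change of -0.89 ± 0.30 (SE) with an edgeR adjusted p of 0.727. Lyz1, a lysozyme gene, lay in the other direction, at 1.19 ± 0.53 on the log2 scale (edgeR adjusted p = 0.743), with 9.81 CPM after anti-NK1.1 and 4.30 CPM after isotype. Emb and Gda, named after their values were seen, were also lower without overlap, at -0.45 ± 0.24 and -0.93 ± 0.44 (SE). Of the 20 markers, 4 were lower and 1 (Lyz1) higher without overlap, beside 7.59% and 7.73% of all tested genes. Mgst1, Hp, S100a6, Mcemp1 and Crip1, also named after their values were seen, had log2 changes between -0.08 and 0.06, with SE of 0.39 to 0.48. These small changes averaged unlike libraries. Each of these genes was above every isotype library in anti-NK1.1 library 3 and below every isotype library in anti-NK1.1 library 2. Hp, for example, had 473, 406 and 1528 CPM in anti-NK1.1 libraries 1 to 3, against 765, 789 and 986 CPM in isotype libraries 1 to 3.

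Patrolling monocytes are the Ly6C-low kind that crawls along vessel walls, and their markers lay mostly on the other side. Of 12 markers tested, 10 were higher and 2 lower after anti-NK1.1, with a median log2 change of 0.53, and the groups overlapped for all 12. Eno3, a muscle-type enolase, had 0.98 ± 0.39, the fatty acid binding protein Fabp4 had 1.36 ± 0.56 and the receptor Cd300e had 0.87 ± 0.36. edgeR called 0 of the 12 over all genes, with 3 at an unadjusted p under 0.05, and DESeq2 called 0. Their summed level was 1083, 952 and 2733 CPM in anti-NK1.1 libraries 1 to 3, against 1553, 1570 and 1387 CPM in isotype libraries 1 to 3, a sum that again was largest in anti-NK1.1 library 3. Its largest parts were Pglyrp1 (log2 change 0.01 ± 0.49) and Nr4a1 (-0.18 ± 0.36), so it says little of the other markers. Pglyrp1 had 440, 321 and 1499 CPM in anti-NK1.1 libraries 1 to 3, against 824, 748 and 670 CPM in isotype libraries 1 to 3. Nr4a1 had 256, 228 and 605 CPM, against 370, 502 and 364 CPM.

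**Figure D4:**
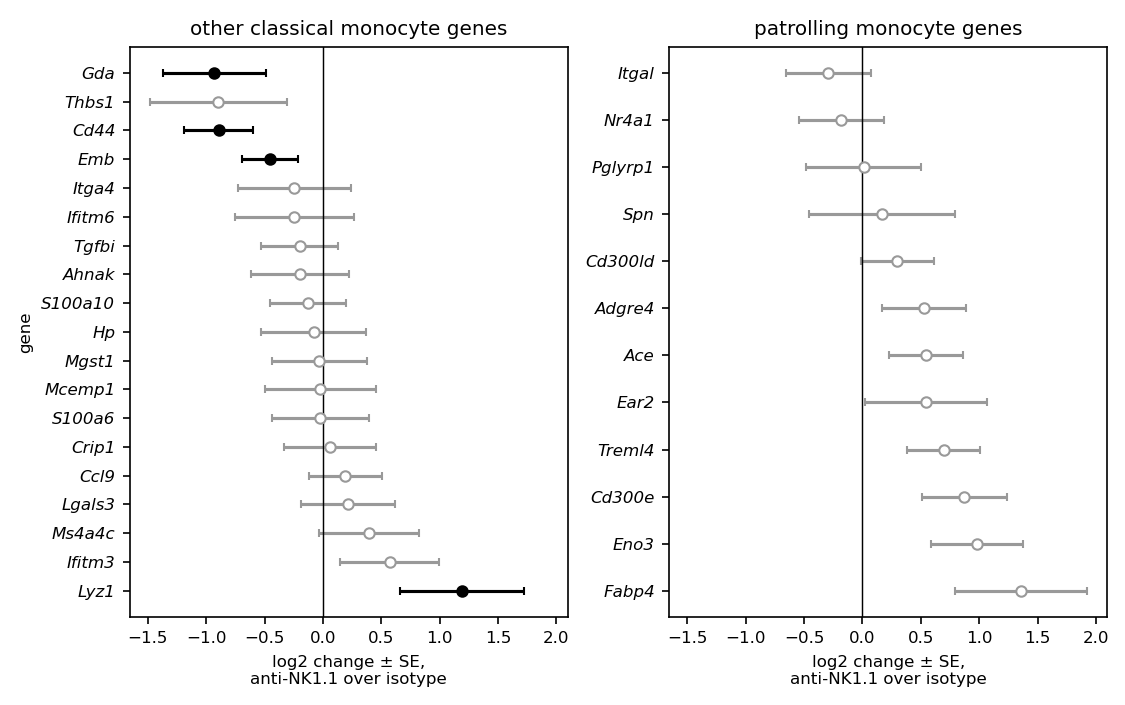
Log2 change of anti-NK1.1 over isotype ± SE (x axes) for further classical and for 12 patrolling monocyte genes (rows), with filled points where the groups did not overlap; 1 of the 20 classical markers is not drawn. Classical markers lie on both sides of 0, with a median of -0.10 over all 20, and 10 of the 12 patrolling markers lie above 0.

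The ligands and receptors of monocyte recruitment showed no shift that passed a test. Of 15 listed, 13 were tested, of which 7 were higher and 6 lower, with a median log2 change of 0.02, and edgeR called 0, also at an unadjusted p under 0.05, as did DESeq2; without anti-NK1.1 library 2, edgeR called Cx3cr1, the fractalkine receptor and itself a microglial gene. Ccl2, the main ligand of CCR2, had 45.0, 22.7 and 26.7 CPM in anti-NK1.1 libraries 1 to 3, against 39.9, 26.3 and 23.7 CPM in isotype libraries 1 to 3, a log2 change of 0.07 ± 0.37 (SE). Cx3cl1, the ligand of CX3CR1, had 0.90 ± 0.51, and Ackr1, a chemokine-binding receptor of venular endothelium, had 2.10 ± 1.24 at under 6 CPM in every library.

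Among partners of fibronectin, factor XIII and versican, 10 of 14 tested genes (20 listed) lay lower; the median log2 change was -0.32. edgeR called 0 of the 14, with 1 (Cd44) at an unadjusted p under 0.05, and DESeq2 called 0. Itgb1, the integrin beta 1 chain of fibronectin receptors, had -0.60 ± 0.39, and Thbs1, the matrix protein thrombospondin 1, had -0.89 ± 0.59 (SE). The transglutaminase Tgm2, a relative of factor XIII, averaged 62.5 CPM after anti-NK1.1 and 66.5 CPM after isotype.

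Regulators of the monocyte lineage were present in both groups. Of 15 tested, 7 were higher and 8 lower, with a median log2 change of -0.03, and edgeR called 0, with 1 at an unadjusted p under 0.05, and DESeq2 also called 0. Cebpa, which directs myeloid progenitors towards monocytes and granulocytes, had groups that did not overlap, with 92.0, 75.9 and 105 CPM in anti-NK1.1 libraries 1 to 3, against 40.5, 63.3 and 65.2 CPM in isotype libraries 1 to 3 (log2 change 0.69 ± 0.27, edgeR adjusted p = 0.727). Cebpb had 0.88 ± 0.42, led by anti-NK1.1 library 3, and Irf4, which takes part in the fate of monocyte-derived dendritic cells, had -1.47 ± 0.74 at under 9 CPM in every library. Of the 15, 1 was higher (Cebpa) and 1 lower (Irf4) without overlap, beside 7.73% and 7.59% of all tested genes. Spi1, the gene of PU.1, had 0.22 ± 0.27 and Irf8, needed for monocyte formation, 0.05 ± 0.22 (SE).

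Marker levels of the other possible sources stood beside Fn1, Ccr2 and F13a1 as follows. Border macrophage markers summed to 333, 272 and 219 CPM in anti-NK1.1 libraries 1 to 3, against 124, 144 and 213 CPM in isotype libraries 1 to 3; 11 of 12 were higher, edgeR called 0 (3 at an unadjusted p under 0.05) and DESeq2 called 2, Pf4 and Cd209f. Cd163, a scavenger receptor of these cells, was at 0 in anti-NK1.1 libraries 1 and 3. In anti-NK1.1 library 2 it had 2.98 CPM, above every isotype library. Its log2 change of 0.69 ± 1.97 (SE) had an SE larger than itself. Endothelial markers summed to 214, 159 and 111 CPM in anti-NK1.1 libraries 1 to 3, against 85.9, 87.1 and 105 CPM in isotype libraries 1 to 3, with 10 of 11 higher. Of these 11, edgeR called 0 (3 at an unadjusted p under 0.05) and DESeq2 called 0. Fibroblast and mural markers summed to 789, 696 and 480 CPM in anti-NK1.1 libraries 1 to 3, against 461, 538 and 263 CPM in isotype libraries 1 to 3, with 5 of 12 higher and 7 lower. Most of that sum was Igfbp2, an insulin-like growth factor binding protein. Without it, a sum added after the data were seen, the markers had 171, 174 and 114 CPM in anti-NK1.1 libraries 1 to 3, against 133, 139 and 163 CPM in isotype libraries 1 to 3. The 5 fibroblast matrix genes of the list were all at lower log2 changes with wide errors: Col1a1 had -0.81 ± 1.08, Col1a2 -0.26 ± 0.78, Col3a1 -2.30 ± 1.09, Dcn -1.30 ± 1.83 and Lum -2.02 ± 2.07 (SE). These genes were grouped after their values were seen. The groups overlapped for all 5. Lum rested mainly on isotype library 1, with 10.7, 1.18 and 0 CPM in isotype libraries 1 to 3. Dcn and Col1a1 were highest in isotype library 3, with 0, 2.82 and 14.9 CPM and 0.64, 1.86 and 8.35 CPM in isotype libraries 1 to 3. Col3a1 in isotype library 1, at 0.84 CPM, was below anti-NK1.1 libraries 2 and 3. The mural receptor Pdgfrb had -1.22 ± 0.60 (SE), while Vtn, a gene of pericytes, had 1.71 ± 0.32 (edgeR adjusted p = 0.464) and was the sole call of DESeq2 in the list. The other genes of the list that lay higher were Rgs5 (2.09 ± 1.23), Kcnj8 (2.38 ± 1.79), Cspg4 (1.08 ± 1.11) and Igfbp2 (0.86 ± 0.44). Neutrophil markers had 18 of 18 lower by their log2 change, with a median of -0.48; edgeR called 0 of the 18 (4 at an unadjusted p under 0.05, among them Cxcr2 at -0.94 ± 0.30, Mmp9 at -0.90 ± 0.35 and Csf3r at -0.52 ± 0.21) and DESeq2 called 0. S100a8, at -0.27 ± 0.52 (SE), turned to 0.042 and 0.077 without anti-NK1.1 library 1 or 2. NK cell markers summed to 87.4, 85.2 and 114 CPM in anti-NK1.1 libraries 1 to 3, against 165, 173 and 140 CPM in isotype libraries 1 to 3, with 8 of 11 lower. Of these NK cell markers, edgeR called 0 (2 at an unadjusted p under 0.05) and DESeq2 called 0. Dendritic cell markers summed to 412, 394 and 397 CPM in anti-NK1.1 libraries 1 to 3, against 274, 361 and 348 CPM in isotype libraries 1 to 3. Of 9 tested, 7 were higher and 2 lower, edgeR called 0 (1 at an unadjusted p under 0.05) and DESeq2 called 0. The part of any of these cells in the levels of the 9 genes was not tested.

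Genes whose log2 CPM over the 6 libraries most resembled that of Fn1, among genes of at least 10 CPM on average, were Chp1, Dcun1d1, Arnt, Dctn4 and Oxr1, with r of 0.989 to 0.992. Of these, Arnt encodes a partner of hypoxia-inducible factors and Dctn4 a dynactin subunit. Those closest to Ccr2 were Ptbp3, AW549877, Hsdl2, Ctdspl2 and Fbxo28, with r of 0.990 to 0.999, of which Ptbp3 encodes a binder of polypyrimidine tracts in RNA. They were picked for their likeness to 2 genes whose groups do not overlap, so the same separation in these 10 follows from how they were picked and is no further result.

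**Figure D5:**
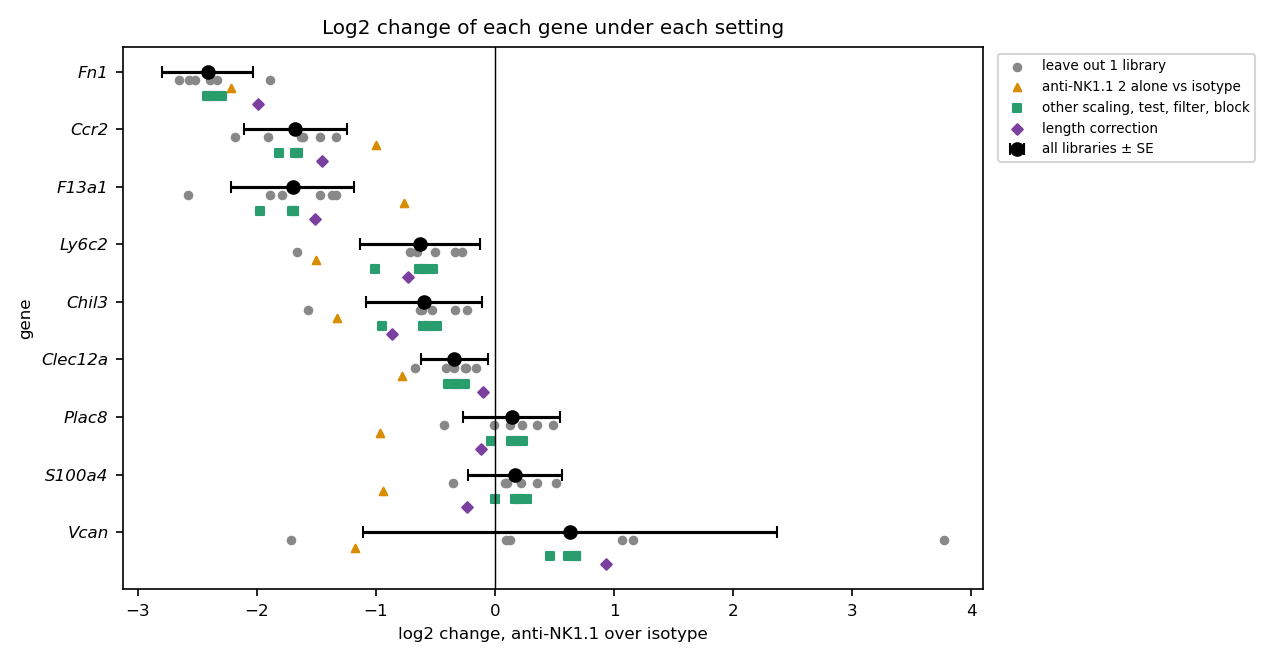
Log2 change of anti-NK1.1 over isotype (x axis) for each of the 9 genes (rows) with all 6 libraries (black, ± SE) and under each alternative setting (coloured symbols). Fn1, Ccr2 and F13a1 stay below 0 under all 13 alternatives, while Plac8, S100a4 and Vcan cross 0.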

How the data were processed

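The deposited table holds read counts per gene for the 6 libraries: its values are whole numbers with different totals per library, although the authors named the table normalized. The aligner was STAR 2.5.3a and the build mm10, per the submitters' processing notes, which also list Cufflinks 2.0 and DESeq2 1.1; the counting program is not given in the sources used here. Per the labels' protocols, cDNA came from the SMART-seq v4 kit and libraries from Nextera XT, without molecular identifiers. Of the rows, 26 carry a date for a symbol and were left out, and 2 rows of reads in no feature (53.3% to 57.4% of reads) or ambiguous ones entered neither library sizes nor tests.

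Genes were filtered with filterByExpr, scaled with TMM and tested two-sided with edgeR 4.0.16 (quasi-likelihood, group only, R 4.3.3), with Benjamini-Hochberg adjustment at 0.05, tested on simulated data first. DESeq2 1.42.0 was an alternative, as were its size factors, no count filter, scaling by microglial genes, a length correction, the replicate number as a block, leaving out each library and anti-NK1.1 library 2 alone. The SE is the absolute log2 change divided by the square root of F, and log2 CPM used a prior count of 2. A floor of 3 counts was 0.0783 to 0.120 CPM, counting error only. Loci, principal transcripts and lengths (98.9% of tested genes) are from GENCODE M21, and promoters from RefSeq (8 of 9 genes matched). The genes and lists were chosen with earlier results of these data known. Named genes were the 9, the 3 of smallest p of each list, those closest to Fn1 and Ccr2, and Klrb1c, Ncr1, P2ry12, Tmem119, S100a8, S100a9, Ly6c1 and Chil4, and some of them are not reported here. Ccl2, Spi1, Irf8 and Tgm2 were added after their values were seen, as were the other genes named outside this rule.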

Additional observations from a re-analysis of the deposited data

How the results depend on the processing

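Fn1, Ccr2 and F13a1 were lower under each of 13 alternatives and did not overlap under any scaling tried. The number of genes lower without overlap, 3 of 9, was 3 to 6 with 1 library left out (6 without anti-NK1.1 library 3, where 12.5% of all genes were lower without overlap) and 8 with anti-NK1.1 library 2 as the sole one of its group (20.9% of all genes). With fewer libraries more genes do not overlap, so these counts cannot be compared with the 3 of 9, which stands beside 7.59%. The median of the 9 was -1.47 to -0.27 with 1 library left out and -1.0 with anti-NK1.1 library 2 alone. That of the 20 further classical markers was -0.56 to 0.19, and -0.90 with anti-NK1.1 library 2 alone; it was 0.00264 with scaling by microglial genes, 0.04 without anti-NK1.1 library 1 and 0.19 without library 2. The cause was not tested.

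Genes called numbered 0 to 129 with 1 library left out (129 without anti-NK1.1 library 2) and 83 with DESeq2. Plac8 was -0.43 to 0.48, S100a4 -0.35 to 0.51, S100a8 -1.33 to 0.077 and Vcan -1.71 to 3.77 with 1 library left out. Plac8 turned to -0.035 with the replicate block, -0.12 with the length correction, -0.43 without anti-NK1.1 library 3, -0.011 without isotype library 3 and -0.96 with anti-NK1.1 library 2 alone. S100a4 turned to -0.23, -0.35 and -0.94 under the length correction, without anti-NK1.1 library 3 and with library 2 alone. Vcan turned to -1.71 without anti-NK1.1 library 1 and -1.17 with library 2 alone, which also turned Ackr1 (-1.07), Cebpb (-0.212) and Itgb1 (0.19). S100a8 turned to 0.042 and 0.077 without anti-NK1.1 library 1 or 2. Same-numbered libraries deviated together with r of 0.05, 0.03 and -0.0038, and libraries of unlike number with r of -0.05 to 0.03. Whether the numbers mark pairs was not tested, since each pair gives a single value. The replicate block called 0 genes and gave the 9 genes a median of -0.95, against -0.60 without the block. Scalings moved the median of all genes by at most 0.05 on the log2 scale.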
